A study of Homo sapiens with 4 samples.

Results

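The 36 genes described here encode the main antioxidant enzymes of human cells, the glutathione and thioredoxin systems, ferritin, and the NRF2 switch that controls many of them. They were taken by gene symbol from a fixed list, and all 36 were found among the 23394 genes of the count table. The list was drawn up with the fold changes of these same libraries known, and SOD2 was chosen for contrast because of its rise. The comparison of knockdown with control therefore describes the members and is not an independent test of them. Calls below are those of a single fit across all genes, and no p-value is given for a member.

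The cells were SUM159, a breast cancer cell line of the triple-negative, mesenchymal-like kind, and all groups grew with serum, insulin and hydrocortisone. The 2 control libraries were from cells given DMSO, the solvent, and in the 2 knockdown libraries doxycycline had switched on a small interfering RNA that targets SHARP, another name of the corepressor SPEN. Controls received no doxycycline, so the drug and the knockdown cannot be told apart, and the labels do not state whether control cells carried the inducible construct. Nor do they state that replicates were separate cultures, so the spread between libraries may be technical. Beyond counting noise that spread was small in the fit (coefficient of variation 2.69%), and the calls and p-values below are measured against it.

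The libraries held 15641296 to 17197715 counts, and SPEN was at 187 and 184 CPM (counts scaled to a common library size) in the controls against 107 and 108 CPM in the knockdown, a ratio of 0.582. CPM values include scaling between libraries by the TMM method, and values after ± are the SD of 2 libraries. Transcripts of the hormone receptors ESR1 and PGR had at most 3 and 5 counts in any library, and the epithelial genes CDH1, GRHL2 and KRT19 were at 0. ERBB2 was called lower, at 89.7 and 89.8 CPM in the controls and 70.4 and 77.3 CPM in the knockdown. All 6 listed markers of the mesenchymal-like state (VIM, SPARC, EGFR, AXL, FN1 and CD44) were called higher, and they summed to 6845 and 6836 CPM in the controls and 9347 and 9299 CPM in the knockdown. Of 11 blood cell markers, the lymphocyte genes CD3D and MS4A1 and the red cell gene HBB were among those at 0 everywhere, and PTPRC, which marks all leukocytes, had 4 to 9 counts. The list summed to 36.4 and 40.4 CPM in the controls and 46.9 and 47.8 CPM in the knockdown, most of it CD68, which other cells also express. ITGAM, a myeloid integrin, had 0 counts in both controls, against 10 and 19 after knockdown. The part of these markers in the results below was not tested.

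Cells meet superoxide and hydrogen peroxide in steps. Superoxide dismutases turn superoxide into hydrogen peroxide, which catalase breaks down. Glutathione peroxidases and peroxiredoxins reduce hydrogen peroxide with electrons drawn from glutathione or thioredoxin and ultimately from NADPH. NRF2, encoded by NFE2L2, is held in the cytoplasm and marked for destruction by KEAP1, and under oxidant or electrophile stress it enters the nucleus and binds antioxidant response elements in the promoters of genes such as NQO1, HMOX1, GCLM, TXNRD1 and the ferritin genes. SOD2, the manganese enzyme of the mitochondrial matrix, is in addition a well-known target of NF-kB.

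The module as a whole did not move one way. Of the 34 members with enough counts to be tested, the quasi-likelihood test of edgeR, with a threshold of 0.05 on the adjusted p, called 11 higher and 12 lower in the knockdown, and 11 were not called. Among all 13915 tested genes, 25.1% were called higher and 24.9% lower (50.1% in either direction). With scaling by library size alone, the split among members was 8 higher and 17 lower, and that of all tested genes moved the same way, to 21.3% higher and 29.5% lower, with the median of all genes at -0.044. Where a call is given below without 1 library, that library's group is a single library, assumed to vary like the other group. The median log2 fold change of the 34 was -0.05, against 0.00 for all tested genes. The libraries of the 2 groups did not overlap for 13 members that were higher and 16 that were lower, where 37% and 37.2% of all tested genes did the same (74.3% in either direction). A fitted change of at least 1.2-fold was seen upward in 5 members and downward in 10, against 20.2% and 22.3% of all tested genes (42.5% in either direction). SOD2 stood at one end with a log2 fold change of 1.83, and the next member, TXNRD2, was at 0.93. At the other end were FTL at -0.70 and CAT at -0.67. A further pair, SOD3 and GPX7, was not tested. The extracellular dismutase SOD3 had 0 counts in the controls and 1 in each knockdown library, and GPX7, a peroxidase of the endoplasmic reticulum, had 0 in all 4.

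**Figure D1:**
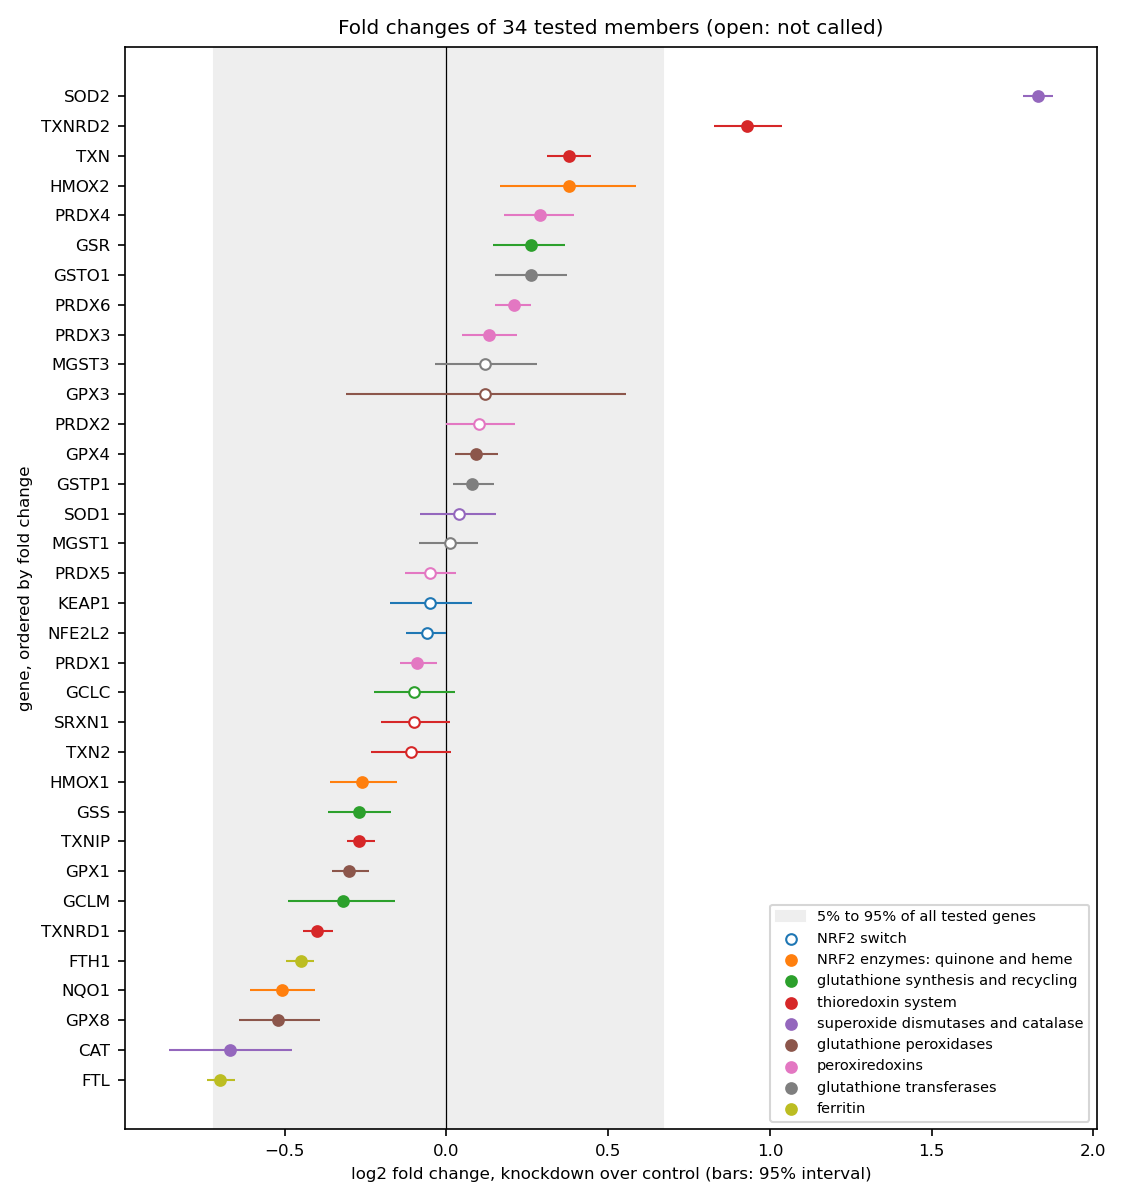
Log2 fold changes of the 34 tested members, knockdown over control, with 95% intervals of the fit; filled points were called and open points were not, colours give the role, and the grey band spans 5% to 95% of all tested genes (-0.72 to 0.67). SOD2 (1.83) and TXNRD2 (0.93) lie beyond the band on the right, and FTL (-0.70) and CAT (-0.67) near its left edge.

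The promoters of the members held the NRF2 element at several of the genes that moved in opposite directions. RefSeq windows from 250 bases before to 50 after the annotated start (GRCh38.p14, whereas the counts were made on GRCh37) were present for 28 of the 36 members, 43 windows in all. The core element TGACNNNGC, searched on both strands, was in a window of 6 of these 28 genes (21.4%), against 16.1% of the 27305 genes in the table. A longer form, the core followed by an A, was in the same 6 genes (21.4%), against 3.94% of all genes. These 6 stretches are shown because they carry the element that NRF2 is known to bind, which stands in capitals, read in the direction of the gene.
GCLM, chr1:93909446-93909475, minus strand: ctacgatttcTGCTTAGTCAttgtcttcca
TXNRD1, chr12:104286919-104286948, plus strand: agtggatttcTGCTTTGTCAttctgactct
GSTP1, chr11:67583736-67583765, plus strand: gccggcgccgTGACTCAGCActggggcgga
GSTO1, chr10:104254656-104254685, plus strand: ggcggagggaTGACTGAGCAtttataactt
KEAP1, chr19:10502784-10502813, minus strand: cgcccggctcTGCTTAGTCAtggtgacctg
MGST1, chr12:16347135-16347164, plus strand: ggggacatcgTGACAAAGCAaattgtctgg

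In GCLM, KEAP1 and TXNRD1 the element reads on the strand opposite to the gene, and in MGST1 it begins 30 bases after the start, in the window that the fewest coding transcripts of 3 windows use. In the other 5 genes it lies before the start. GCLM and KEAP1 shared the same 10 letters. The windows of the NRF2 targets NQO1 and FTL held no match, and HMOX1 and FTH1 had no window. Of the 6, GCLM and TXNRD1 fell, GSTO1 and GSTP1 rose, and KEAP1 and MGST1 were not called, so a match in the window went with either direction. GSTP1 rose little (log2 fold change 0.08), and the calls of GCLM and GSTP1 were lost in some fits described below. A match describes the letters and is not evidence of binding.

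For SOD2, 4 windows were in the table, and none held the core element or the NF-kB motif, which was in a window of 7.09% of all genes. A motif outside the windows, such as in an intron, would have been missed by this search. The 250 bases upstream of the start that most GENCODE coding transcripts use (6 in that window) are shown with those of TXNRD1, a member that fell, whose element is in capitals.
SOD2, chr6:159693242-159693491, minus strand: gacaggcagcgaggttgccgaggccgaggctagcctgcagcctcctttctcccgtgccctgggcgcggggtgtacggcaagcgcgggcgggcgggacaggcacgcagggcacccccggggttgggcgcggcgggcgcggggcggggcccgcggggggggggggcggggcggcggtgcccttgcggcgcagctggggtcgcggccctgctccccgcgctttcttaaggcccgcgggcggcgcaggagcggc
TXNRD1, chr12:104286782-104287031, plus strand: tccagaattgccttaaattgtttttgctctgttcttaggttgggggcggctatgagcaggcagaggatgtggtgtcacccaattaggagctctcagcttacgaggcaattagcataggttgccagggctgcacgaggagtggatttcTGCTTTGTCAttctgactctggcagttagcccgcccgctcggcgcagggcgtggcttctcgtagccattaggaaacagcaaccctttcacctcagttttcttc

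The SOD2 stretch is rich in G and C (78.3% of its 300-base window, against 53.7% in that of TXNRD1). The median was 58.7% over all windows and 68% over those of the members. SOD2 was not alone in this, and the window of SRXN1 was at 80%. The NF-kB motif was in a window of 1 of the 28 members, TXNRD2, the runner-up among the rises, 216 bases before one of its 3 annotated starts. It is shown for that reason, with the motif in capitals.
TXNRD2, chr22:19942015-19942044, minus strand: ccccaagtccGGAGACTCCCacccaacgtc

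SOD2 was the member that changed most. Control libraries held it at 527 and 540 CPM, against 1897 and 1893 CPM after knockdown. Both knockdown libraries lay far above both controls, at 3.55 times the control mean (533 ± 9.52 against 1895 ± 2.54 CPM, n = 2 each, log2 fold change 1.83, SE 0.021). By log2 fold change SOD2 ranked 86 from the top of 13915 tested genes. SOD2 took 0.0542% of all counts in the controls and 0.186% in the knockdown. The RNA methylation factor WTAP overlaps annotated SOD2 models on the other strand, and whether counting used strand is unknown here. WTAP counts were 2662 and 2813 (controls) and 3053 and 2902 (knockdown), beside SOD2 counts of 8835 and 9421 (controls) and 29298 and 29178 (knockdown).

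The other dismutase and catalase had different values from SOD2. SOD1, the copper-zinc enzyme of the cytosol, was at 80.3 and 87.1 CPM in the controls and 83.2 and 88.4 CPM in the knockdown. These groups overlapped, and SOD1 was not called (log2 fold change 0.04, SE 0.055, 95% interval -0.082 to 0.152). The ratio of SOD2 to SOD1 CPM within a library was 6.56 and 6.20 for controls, against 22.8 and 21.4 after knockdown. Catalase (CAT), which breaks down hydrogen peroxide in peroxisomes, was at 23.9 CPM in both controls and at 14.1 and 15.96 CPM in the knockdown. Both knockdown libraries were lower, and CAT fell to 0.630 times the control level (log2 fold change -0.67, SE 0.089). The ratio of SOD2 to CAT went from a mean of 22.3 to 126.

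**Figure D2:**
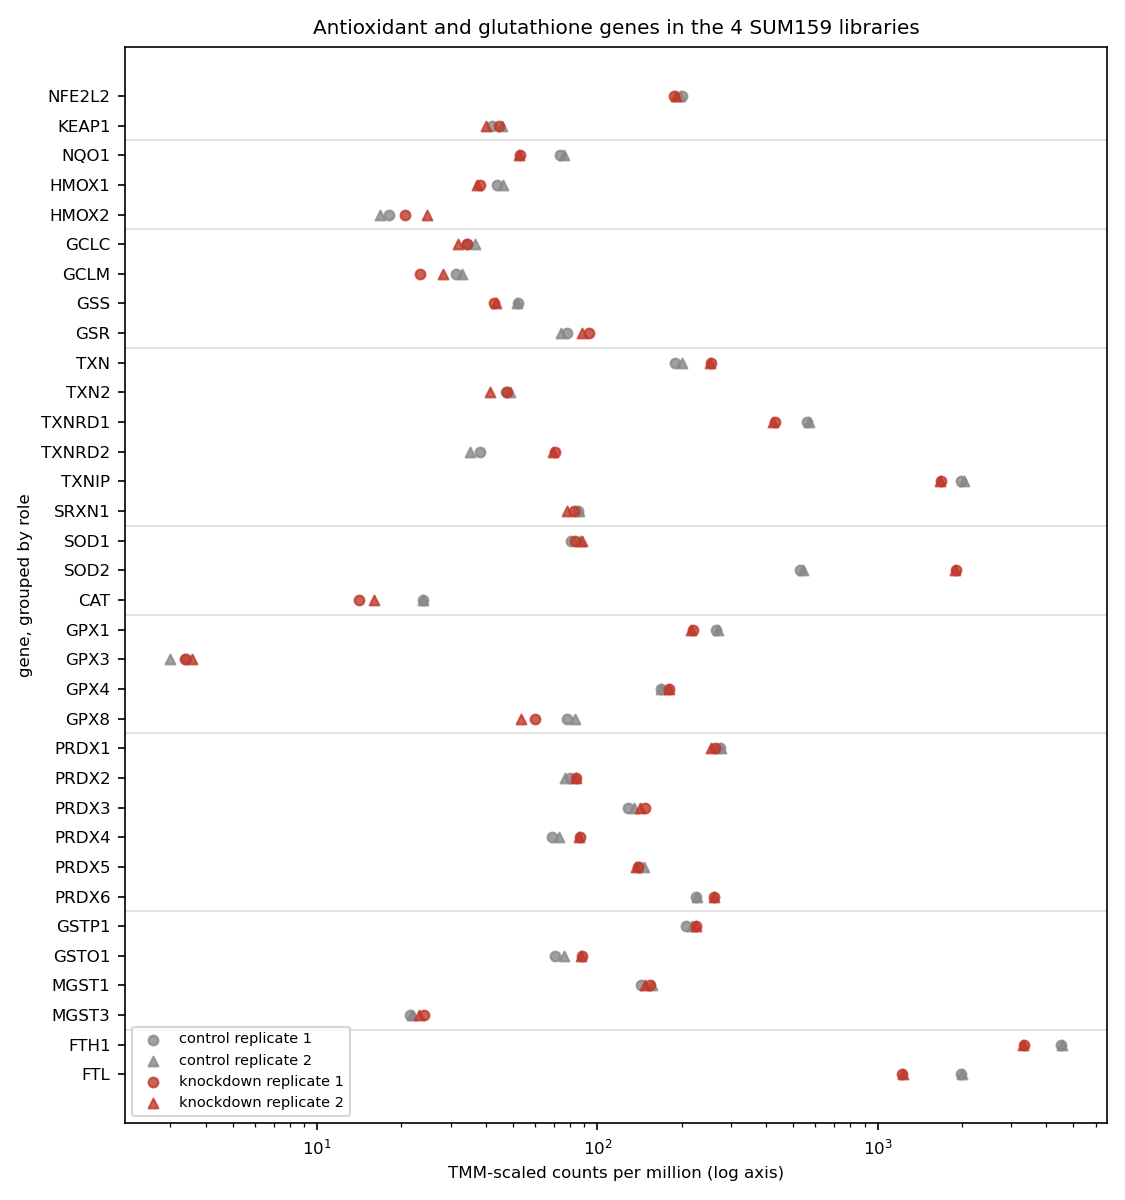
TMM-scaled CPM (log axis) of the 34 tested members in each of the 4 libraries, grouped by role; grey marks are controls, red marks are knockdown, and circles and triangles are replicates 1 and 2. SOD2 lies at 527 and 540 CPM in the controls and at 1897 and 1893 CPM in the knockdown, while for SOD1, KEAP1 and MGST1 the marks of the groups overlap.

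Neither gene of the NRF2 switch was called. NFE2L2 was at 200 and 197 CPM in the controls and 188 and 191 CPM in the knockdown. The groups did not overlap, yet the difference was small and not called (log2 fold change -0.06, SE 0.029). It was called with scaling by library size alone (-0.11). KEAP1 was at 42.0 and 45.7 CPM in the controls and 44.7 and 40.0 CPM in the knockdown, with groups that overlapped (95% interval of the log2 fold change -0.176 to 0.078).

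Of the quinone and heme enzymes, the NRF2 targets NQO1 and HMOX1 fell and HMOX2 rose. NQO1, which reduces quinones, was at 73.6 and 76.3 CPM in the controls and 53.2 and 52.4 CPM in the knockdown. Both knockdown libraries lay below the controls, at 0.704 times their level (log2 fold change -0.51, SE 0.047). HMOX1, the inducible heme oxygenase, was at 44.0 and 45.9 CPM in the controls and 38.0 and 37.3 CPM in the knockdown, again without overlap, and fell by 0.26 (SE 0.049) on the log2 scale. HMOX2, the constitutive enzyme, went the other way, from 18.1 and 16.7 CPM to 20.5 and 24.7 CPM, and was called higher (log2 fold change 0.38, SE 0.099). Its knockdown libraries differed from each other more than its controls did, and the call was lost without control replicate 1 (0.43), control replicate 2 (0.32) or knockdown replicate 2 (0.24). NMRAL1, which overlaps HMOX2 on the other strand, had counts of 473 and 523 (controls) and 296 and 310 (knockdown).

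Glutathione is made by GCLC and GCLM, the catalytic and modifier subunits of the rate-limiting ligase, followed by the synthetase GSS, and is recycled by the reductase GSR. GCLM was at 31.4 and 32.97 CPM in the controls and 23.3 and 28.1 CPM in the knockdown. Both knockdown libraries were below the controls but lay apart, and GCLM was called lower (log2 fold change -0.32, SE 0.077), a call lost without control replicate 1 (-0.36) or control replicate 2 (-0.29). GSS fell from 51.9 ± 0.520 to 43.1 ± 0.480 CPM (n = 2 each), a log2 fold change of -0.27. GSR rose from 75.9 ± 2.75 to 90.6 ± 3.94 CPM, a log2 fold change of 0.26 (SE 0.052). GCLC was at 34.3 and 36.5 CPM in the controls and 34.3 and 31.9 CPM in the knockdown and was not called (-0.10, SE 0.058), although it was with scaling by library size alone (-0.14). The steps of synthesis that were called were thus lower and the recycling enzyme higher.

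In the thioredoxin system the reductases of different compartments moved in opposite directions. TXNRD1, the cytosolic thioredoxin reductase, was at 558 and 567 CPM in the controls and 430 and 425 CPM in the knockdown. TXNRD2, its mitochondrial counterpart, was at 38.3 and 35.3 CPM in the controls and 70.8 and 69.4 CPM in the knockdown. Neither gene had overlapping groups, and the log2 fold changes were -0.40 (SE 0.022) for TXNRD1 and 0.93 (SE 0.049) for TXNRD2. Within a library the ratio of TXNRD2 to TXNRD1 CPM was 0.0685 and 0.0622 for controls, against 0.165 and 0.164 after knockdown. The deposited TXNRD2 value of 1 control library was not whole, so the assignment of its reads is uncertain.

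TXN, the cytosolic thioredoxin that both peroxiredoxins and other enzymes draw on, was at 189 and 201 CPM in the controls and 255 and 252 CPM in the knockdown. Both knockdown libraries were higher, at 1.30 times the control level (log2 fold change 0.38, SE 0.031). TXNIP, the protein that binds and inhibits thioredoxin, was at 1991 and 2040.5 CPM in the controls and 1678 and 1675 CPM in the knockdown. It fell by 0.27 (SE 0.020) on the log2 scale, so the ratio of TXN to TXNIP CPM went from 0.0949 and 0.0985 to 0.152 and 0.150. TXN has 7 processed copies in the GENCODE annotation, and none of them by that name is in the table, so how their reads were assigned is uncertain.

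The mitochondrial thioredoxin TXN2 was at 47.3 and 48.7 CPM in the controls and 47.5 and 41.5 CPM in the knockdown, and was not called (-0.11, SE 0.058). SRXN1, the sulfiredoxin that repairs overoxidised peroxiredoxins, was at 85.9 ± 0.360 and 80.4 ± 3.08 CPM (n = 2 each) and was not called (-0.10, SE 0.050). Without knockdown replicate 1 both were called lower, TXN2 at -0.21 and SRXN1 at -0.14, and likewise with scaling by library size alone (-0.15 and -0.14).

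The glutathione peroxidases were divided. GPX1, the abundant cytosolic selenoenzyme, was at 264 and 270 CPM in the controls and 219 and 216 CPM in the knockdown. GPX8, a membrane enzyme of the endoplasmic reticulum, was at 78.0 and 83.4 CPM in the controls and 59.8 and 53.2 CPM in the knockdown. Both fell without overlap, GPX1 by 0.30 (SE 0.027) and GPX8 by 0.52 (SE 0.059) on the log2 scale. Deposited GPX8 values were fractional in the knockdown, but CDC20B, which overlaps it, had at most 3 counts. GPX4, which reduces lipid peroxides and guards against ferroptosis, was at 169 CPM in both controls and at 180.3 and 179.7 CPM in the knockdown. Its rise was small (log2 fold change 0.09, SE 0.031), and the call was lost without control replicate 1, control replicate 2 or knockdown replicate 1, at 0.09 each time, and with scaling by library size alone (0.05). The plasma enzyme GPX3 had 52 to 57 counts a library and was not called (0.12, SE 0.20).

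Of 6 peroxiredoxins, 3 were called higher and 1 lower, where 25.1% and 24.9% of all tested genes were. PRDX4, the peroxiredoxin of the endoplasmic reticulum, was at 68.9 and 72.9 CPM in the controls and 86.8 and 86.2 CPM in the knockdown, a log2 fold change of 0.29 (SE 0.051). PRDX6, the 1-cysteine enzyme, was at 225 and 228 CPM in the controls and 261 and 262 CPM in the knockdown (0.21, SE 0.026). Both rose without overlap of the groups. PRDX3, of the mitochondrial matrix, was called higher (0.13, SE 0.040), a call lost without control replicate 1 or knockdown replicate 1 (0.10 each). PRDX1, the abundant cytosolic enzyme and a known NRF2 target, was called lower (275 ± 1.93 against 259 ± 6.33 CPM, -0.09), a call lost without control replicate 1 (-0.09), control replicate 2 (-0.08) or knockdown replicate 2 (-0.06). PRDX2 (0.10) and PRDX5 (-0.05) were not called. The peroxiredoxins together summed to 926 CPM in the controls and 975 CPM in the knockdown.

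Of 4 glutathione transferases, which conjugate glutathione to electrophiles, 2 were called higher and 0 lower, where 25.1% and 24.9% of all tested genes were. GSTO1 rose from 73.2 ± 3.81 to 87.7 ± 0.642 CPM (n = 2 each, log2 fold change 0.26, SE 0.053). GSTP1, the one with the highest CPM per kilobase of median coding transcript, was at 207 and 217 CPM in the controls and 225 CPM in both knockdown libraries. It was called higher (0.08, SE 0.030), but not without control replicate 1 (0.05) or knockdown replicate 1 (0.08), nor with scaling by library size alone (0.04). The membrane-bound MGST1 (0.01, 95% interval -0.085 to 0.097) and MGST3 (0.12, 95% interval -0.036 to 0.280) were not called.

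Ferritin, the iron store that keeps iron out of radical chemistry, was lower in both chains. The light chain FTL was at 1986 and 2006 CPM in the controls and 1227 and 1235 CPM in the knockdown. The heavy chain FTH1, which carries the ferroxidase, was at 4499 and 4564 CPM in the controls and 3321 and 3297 CPM in the knockdown. Neither chain had overlapping groups, and FTL fell to 0.617 and FTH1 to 0.730 times the control level (log2 fold changes -0.70, SE 0.020, and -0.45, SE 0.020). The ratio of FTH1 to FTL CPM was 2.27 in both controls and 2.71 and 2.67 in the knockdown. Ferritin genes have many processed copies, 25 annotated for FTH1 and 16 for FTL. The copies present by name in the table had at most 21 counts, and the assignment of reads among copies is uncertain.

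**Figure D3:**
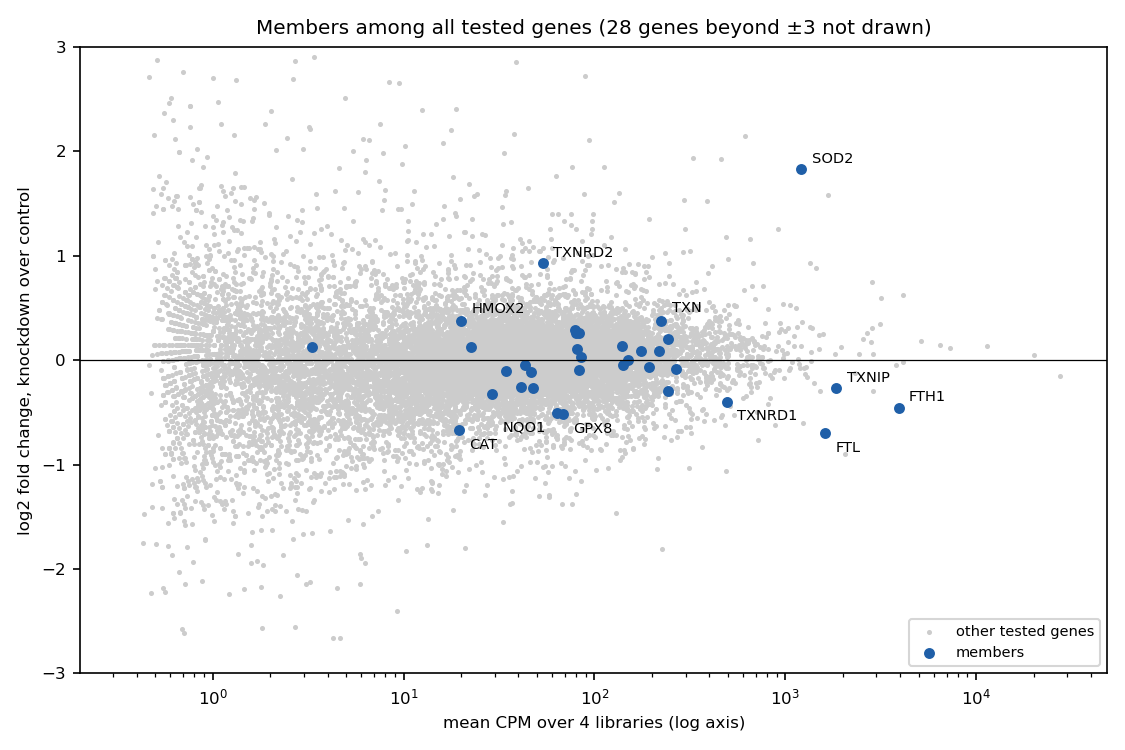
Log2 fold change (knockdown over control) against mean CPM over the 4 libraries (log axis) for all tested genes in grey and members in blue; 28 genes beyond 3 in size are not drawn. SOD2, FTH1, FTL and TXNIP have the highest mean CPM of the members, without division by transcript length, and of these only SOD2 lies above 0.

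Ferritin made up the largest share of the module's summed level, at 6528 CPM in the controls and 4540 CPM in the knockdown. TXNIP was at 2016 CPM in the controls and 1677 CPM in the knockdown, and SOD2 at 533 and 1895 CPM (means of 2 libraries). All members together summed to 12473 and 12709 CPM in the controls and 11581 and 11509.6 CPM in the knockdown. Without SOD2 the sum was 12057 CPM in the controls and 9650.4 CPM in the knockdown (means of 2 libraries), a ratio of 0.800. Without ferritin as well it was 5529.8 and 5110.2 CPM, a ratio of 0.924, and TXNIP was the largest single member of that sum. Divided by the median length of coding transcripts in GENCODE, FTH1 had the highest level of the members in both groups, at 6924 and 5056 CPM per kilobase. SOD2 ranked 4 in the controls (582 CPM per kilobase) and 2 in the knockdown (2067 CPM per kilobase). That order depends on which SOD2 transcript is counted. The median coding transcript has 917 bases and the longest 14266, and with the longest transcript of each gene SOD2 ranked 19 in the controls and 11 in the knockdown.

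Grouped by compartment, 3 of the 4 members listed for the mitochondrial matrix (SOD2, TXNRD2 and PRDX3) were called higher and TXN2 was not called. The list is not complete, and PRDX5, which it leaves out, was not called (log2 fold change -0.05). Of all tested genes, 25.1% were called higher. SOD2 was chosen for its rise, and PRDX3 rose little (log2 fold change 0.13). With scaling by library size alone, the call of PRDX3 was lost and TXN2 was called lower. Genes that follow mitochondrial content were examined beside the matrix members. Of 12 such genes, 10 were called higher and 1, the mitochondrial transcription factor TFAM, lower, with a median log2 fold change of 0.16. Citrate synthase (CS) rose from 365 ± 10.2 to 464 ± 1.05 CPM, the chaperone HSPD1 from 849 ± 12.9 to 1047 ± 1.30 CPM and the channel VDAC2 from 191 ± 7.01 to 245 ± 4.29 CPM (n = 2 each, edgeR adjusted p at most 2.09e-07). Their part in the matrix members was not tested. Here and in the lists below, genes given with a p-value are called genes with the smallest adjusted p of their list. The lists were chosen with earlier results of these data known, so these p-values describe the genes and are not independent tests.

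Beyond the members, 144 tested genes of the wider pathway were also divided, with 40 called higher (25.1% of all tested genes were) and 47 lower (24.9%). Their median log2 fold change was -0.02. The same shares of all tested genes stand beside the counts of each list below. Of 15 partners and regulators of NRF2, 8 rose and 4 fell. BACH1, which represses HMOX1 and ferritin genes by occupying the same elements, was at 28.4 and 30.9 CPM in the controls and 64.6 and 57.7 CPM in the knockdown, a rise of 2.06 times (edgeR adjusted p = 2.69e-09). The small MAF protein MAFF rose 1.42-fold (edgeR adjusted p = 5.80e-07), and SQSTM1, the autophagy adaptor that sequesters KEAP1, fell from 940 ± 10.6 to 729 ± 15.5 CPM (edgeR adjusted p = 3.21e-09).

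Of 21 tested further targets of NRF2, 6 rose and 8 fell. The transporter ABCC3 fell from 349 ± 7.94 to 219 ± 6.57 CPM and the biliverdin reductase BLVRB from 67.2 ± 2.49 to 38.2 ± 0.243 CPM, while aldose reductase AKR1B1 rose from 120 ± 6.58 to 199 ± 2.69 CPM (n = 2 each, edgeR adjusted p at most 2.34e-09). SLC7A11, the cystine carrier that feeds glutathione synthesis, was lower as well, at 139 and 138 CPM in the controls and 91.0 and 96.4 CPM in the knockdown and called; it falls outside the naming rule and was picked after its values were seen. The core element was in a promoter window of 8 of the 16 listed targets found in the RefSeq table. Of these 8, ABCC4, ME1 and PGD rose and ABCB6, EPHX1 and PIR fell.

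Of 26 tested other glutathione genes, 3 rose and 9 fell (median log2 fold change -0.15). The ectopeptidase ANPEP fell by 0.52 on the log2 scale and the oxoprolinase OPLAH by 0.65, and the cyclotransferase GGCT rose by 0.46. A mixed list of 18 genes held thioredoxin-like and methionine sulfoxide genes together with sestrin (SESN), ARRDC, MLXIP and MLXIPL genes. In it 2 rose and 9 fell (median -0.21), among them SESN3 (-0.94), TXNDC12 (-0.44) and SESN2 (-0.35). For these 6 genes the adjusted p from edgeR did not exceed 1.16e-05. Of 19 genes for selenoproteins and their synthesis, 2 rose and 7 fell, with SEPSECS (-0.50), SECISBP2 (-0.40) and SEPHS2 (-0.36) lower at an edgeR adjusted p of at most 2.06e-05.

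Genes that supply NADPH were split, with 4 of 13 higher and 5 lower. Isocitrate dehydrogenase IDH1 was at 65.3 and 68.5 CPM in the controls and 30.3 and 30.95 CPM in the knockdown, and the transhydrogenase NNT fell by 0.16. RPIA, of the pentose phosphate pathway, rose from 40.5 and 39.3 CPM to 71.7 and 74.1 CPM. The edgeR adjusted p was 9.60e-11 for IDH1, 1.04e-04 for NNT and 6.39e-10 for RPIA.

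Iron and heme genes were examined beside ferritin. Of 20 tested, 10 rose and 5 fell (median 0.06). The transferrin receptor TFRC, which brings iron into the cell, was at 367 and 378 CPM in the controls and 486 and 489 CPM in the knockdown, and the iron importer SLC11A2 was at 61.9 and 64.1 CPM and 90.6 and 87.5 CPM (edgeR adjusted p = 2.55e-09 and 9.56e-07). Both of these uptake genes were higher in the libraries where both ferritin chains were lower. The iron regulatory proteins ACO1 (log2 fold change 0.43) and IREB2 (0.34) rose too and were picked after their values were seen. A link between any of these genes and the ferritin values was not tested.

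Of 9 tested genes that produce oxidants, 3 rose and 1 fell, and the oxidases NOX1, NOX3, NOX4, NOX5 and CYBB had too few counts to be tested. The monoamine oxidase MAOA rose from 52.6 ± 0.865 to 90.2 ± 3.07 CPM and the aldehyde oxidase AOX1 from 135 ± 3.64 to 217 ± 9.97 CPM, and NOXA1 fell from 5.88 ± 0.369 to 3.08 ± 0.133 CPM (n = 2 each, edgeR adjusted p at most 3.92e-04). In the list of other defence genes 5 of 9 rose and 1 fell, and the 3 metallothioneins, small metal-binding proteins, were at 1.91 (MT2A), 1.86 (MT1E) and 1.46 (MT1X) times their control level (edgeR adjusted p at most 8.52e-08). Metallothionein genes are near-identical, so single members are uncertain.

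NF-kB feedback genes were set beside SOD2 because both respond to that pathway. The list and SOD2 were chosen with these fold changes known, so the values describe and support nothing. Of 12 tested, 11 were called higher and 0 lower, and the median log2 fold change was 0.69; the twelfth, BIRC2, was not called. TNFAIP3, NFKB2 and BIRC3 rose by 2.11, 0.90 and 0.97 on the log2 scale. SOD2, at 1.83, lay within the range of that list (-0.06 to 2.11) only because of TNFAIP3. Every other feedback gene lay below SOD2, the next being BIRC3 at 0.97. The other 33 tested members (-0.70 to 0.93) lay below SOD2 as well. An NF-kB motif was in a promoter window of 8 of the 10 feedback genes found in the RefSeq table.

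**Figure D4:**
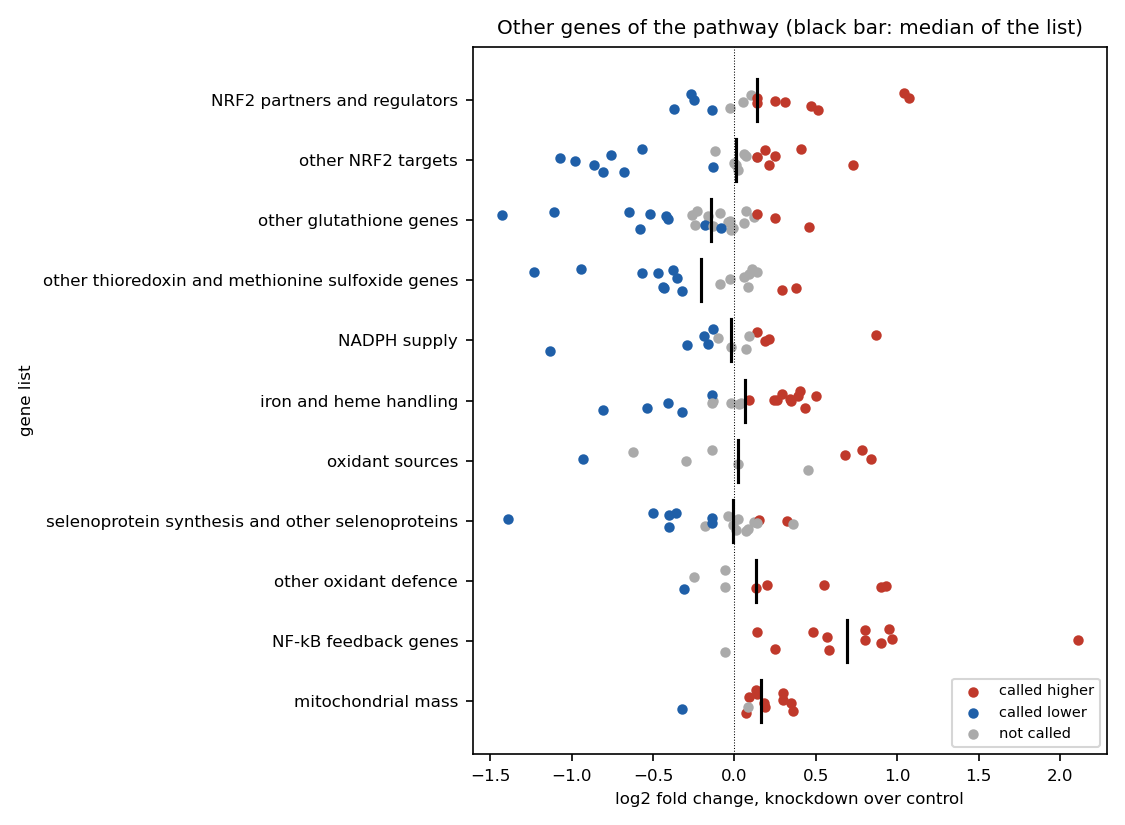
Log2 fold change (knockdown over control) of every tested gene in 11 lists of the wider pathway, with red for called higher, blue for called lower, grey for not called and a black bar at each list's median. The NF-kB feedback genes have a median of 0.69, and the other lists have medians from -0.21 to 0.16.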

How the data were processed

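RNA-seq libraries of SUM159 cells (2 control, 2 knockdown) were analysed from estimated counts per gene symbol, which the authors deposited without normalisation. Reads were aligned with STAR to GRCh37, per the submitters' processing notes, while the counting program, its annotation and its strand setting are not stated. Columns were matched to samples by name, with 0 left unused. Values were rounded before testing. Genes were tested by quasi-likelihood in edgeR 4.0.16 (R 4.3.3; two-sided), with scaling by TMM, no term but group, and filterByExpr (minimum count 10), and p-values were adjusted over 13915 genes by Benjamini-Hochberg and called at 0.05. Standard errors are the log2 fold change over the square root of F. The fit was tested on simulated counts. The chi-square per gene was 2.05 between controls and 1.73 between knockdown libraries, so libraries were kept separate.

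Members and lists were chosen with earlier results of these data known. Named are all members, SPEN and up to 3 called genes of each other list with the smallest adjusted p. Alternatives were RLE or library-size scaling, other filters, DESeq2 1.42.0, limma-voom (limma 3.58.1), a replicate block, each library left out, a 1.2-fold threshold and a stricter adjusted p. Transcript lengths and gene models came from GENCODE 29 and promoters from RefSeq (GRCh38), so counts and coordinates come from different builds.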

Additional observations from a re-analysis of the deposited data

How the results depend on the processing

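Against a fold of 1.2 (edgeR's glmTreat), 2521 genes were called in place of 6970, with 3 members higher and 6 lower and 17 and 28 other pathway genes higher and lower. Of all tested genes, 8.74% were then called higher and 9.38% lower. Leaving out each library in turn gave 7 to 10 members higher, the lowest without control replicate 1, and 10 to 14 lower, while 18.4% to 22.7% of all tested genes were called higher and 17.1% to 22% lower. The group left with 1 library is assumed there to vary like the other. KEAP1, SOD1 and MGST1, which were not called, changed sign: KEAP1 to 0.01 without control replicate 2 and 0.03 without knockdown replicate 2; SOD1 to -0.01 with library-size scaling, -0.02 without control replicate 1 and -0.01 without knockdown replicate 2; MGST1 to -0.04 with library-size scaling, -0.06 without control replicate 1 and -0.02 without knockdown replicate 1. Over the libraries left out, KEAP1 ranged from -0.13 to 0.03 and MGST1 from -0.06 to 0.07. The log2 fold change of SOD2 ranged from 1.78 to 1.84. By the longest transcript, SOD2 ranked 11 in place of 2 per length in the knockdown. The calls of GPX4, PRDX1 and GSTP1 were also lost with DESeq2, those of PRDX1 and GSTP1 without the low-count filter, and that of PRDX3 with library-size scaling (0.09); PRDX2 was called with limma-voom and PRDX5 with library-size scaling. The cause was not tested. Replicate numbers of the groups share no stated culture or day, and the replicate differences correlated at 0.177 between groups. With the replicate block, 11 members were higher and 12 lower, and 7211 genes were called. At 2 libraries a group, differences of a few percent rest on the depth of each gene, and GPX3, SOD3 and GPX7 are limited by their counts.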
